A study of Homo sapiens with 2 samples.

Results

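The cells described here are those in which transcripts of IFNL1, the gene of interferon lambda 1, were captured in floating spheres of the human cell line MDA-MB-231, which was established from a triple-negative breast cancer. A cell barcode was counted as IFNL1-expressing (IFNL1+) when it held at least 1000 unique molecular identifiers (UMIs, the tags that mark single captured transcripts) and at least 1 UMI of IFNL1. This chose 67 of the 1744 barcodes of at least 1000 UMIs, of 2000 barcodes in all. The study asked how adaptation to metformin, a biguanide diabetes drug, altered the transcriptome of these spheres. Cells were kept as flat cultures in high-glucose DMEM with 2 mM or 0 mM metformin for 30 days, then grown as floating mammospheres on low-attachment plates for 10 days and separated with trypsin and EDTA. There was 1 single-cell library per dose and no replicate, so no test was made, and every interval below is a 95% interval that covers counting error only. The number of cultures behind a library is not given in the labels.

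Interferons lambda, the type III family, are secreted by epithelial and some immune cells when viral or stray cellular RNA meets the cytoplasmic sensors RIG-I (gene DDX58) and MDA5 (gene IFIH1). The sensors act through the adaptor MAVS on the transcription factors IRF3, IRF7 and NF-kB, which switch on interferon genes and, directly, a set of early genes such as the IFIT family, OASL and CXCL10. Secreted interferon then acts on the producing cell and its neighbours through a receptor of IFNLR1 and IL10RB, and JAK-STAT signalling raises the wider group of interferon-stimulated genes (ISGs). In a population only some of the cells that respond to interferon also make it.

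The promoters of the genes below are shown for the elements that these factors bind, since the genes were high in the summed counts of IFNL1+ barcodes. Single barcodes did not hold all of them. Sequences are from RefSeq, build GRCh38.p14, within the 250 bases before the start site, 5′ to 3′ on the gene's strand. Capitals mark matches, on either strand, to the core of the interferon-stimulated response element (ISRE, GAAANNGAA, bound by IRF factors) or to the NF-kB core (GGANNTTCC); overlapping matches are joined. The windows are IFNL1 at chr19:39296174-39296228 (+ strand), IFNL3 at chr19:39245397-39245445 (- strand), CXCL10 at chr4:76023645-76023738 (- strand), IFIT1 at chr10:89392488-89392549 (+ strand), ISG15 at chr1:1013364-1013424 (+ strand) and IL6 at chr7:22727108-22727156 (+ strand).
IFNL1: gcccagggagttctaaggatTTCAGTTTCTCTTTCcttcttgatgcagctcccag
IFNL3: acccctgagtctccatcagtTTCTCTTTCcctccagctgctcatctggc
CXCL10: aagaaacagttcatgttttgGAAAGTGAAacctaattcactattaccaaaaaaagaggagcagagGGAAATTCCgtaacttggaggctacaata
IFIT1: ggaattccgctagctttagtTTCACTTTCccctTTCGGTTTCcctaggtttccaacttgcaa
ISG15: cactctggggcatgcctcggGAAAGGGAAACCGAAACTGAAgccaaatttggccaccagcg
IL6: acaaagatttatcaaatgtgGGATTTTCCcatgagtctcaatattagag
The IFNL1 window held 2 overlapping ISRE matches, that of IFIT1 held 2, and that of ISG15 held 3 in a row. CXCL10 had 1 ISRE match and 1 NF-kB match, and IL6 had an NF-kB match only. The windows of IFNL2 and IFNL3 were identical, with 1 ISRE match each. Only windows with a match are shown. CH25H, BBC3, CCL26, FZD4 and MXD1, also high in IFNL1+ barcodes, had no match, and CXCL11 had an NF-kB match only. Of all 27305 promoters in the RefSeq table, 7.06% held an ISRE core and 3.88% an NF-kB core in the same 250 bases. A match describes these letters and is not evidence of a bound site. CCL5, OASL and IFIT2 had no entry in the table.

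IFNL1+ barcodes made up 29 of 800 barcodes at 2 mM (3.63%, exact binomial interval 2.44 to 5.16%) and 38 of 944 at 0 mM (4.03%, 2.86 to 5.48%). After each barcode was thinned to 1000 UMIs, 23 (2.88%, 1.83 to 4.28%) at 2 mM and 21 (2.22%, 1.38 to 3.38%) at 0 mM still held an IFNL1 UMI. The order of the doses thus turned with the depth at which barcodes were read, and the intervals overlapped in both readings. The median depth of IFNL1+ barcodes was 3801 UMIs at 2 mM and 5306 at 0 mM, against 3037 and 3631 UMIs in all other barcodes of at least 1000 UMIs. No cell barcode occurred in both libraries.

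Some IFNL1+ barcodes differed from another barcode of the same library by a single base, and values were also taken with such barcodes merged as 1 cell. Merging joined the 29 IFNL1+ barcodes at 2 mM into 28 cells and the 38 at 0 mM into 34. At 0 mM, 3 such neighbours with 46, 28 and 21 IFNL1 UMIs together held 29.7% of that library's IFNL1 UMIs. With all neighbours merged before the 1000-UMI minimum was applied, the shares were 3.79% at 2 mM and 3.84% at 0 mM. The counts of genes at least 2-fold higher in IFNL1+ barcodes were then 235 at 2 mM and 137 at 0 mM, close to the 232 and 133 without merging given below.

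IFNL1 itself was unevenly spread over the barcodes that defined the group. The 2 mM library held 371 IFNL1 UMIs, of which 368 lay in the 29 IFNL1+ barcodes and 3 in 2 barcodes of under 1000 UMIs. The 0 mM library held 320, all in the 38 IFNL1+ barcodes. The 5 barcodes with the most IFNL1 held 69.6% of these UMIs at 2 mM and 48.4% at 0 mM. Barcodes 1 base apart are counted singly here and in the classes below. With them merged, the cell with the most IFNL1 held 60 UMIs at 2 mM and 95 UMIs, from 3 barcodes, at 0 mM. Counts per barcode ran from 1 through a median of 3 to 60 at 2 mM, and from 1 through a median of 2 to 46 at 0 mM. Exactly 1 IFNL1 UMI was found in 7 barcodes at 2 mM and 17 at 0 mM, 2 to 4 UMIs in 9 and 5, and 5 or more in 13 and 16. As a level over whole libraries, IFNL1 stood at 114 CPM, the count of a gene scaled to a common library total, at 2 mM and 72.7 CPM at 0 mM.

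**Figure D1:**
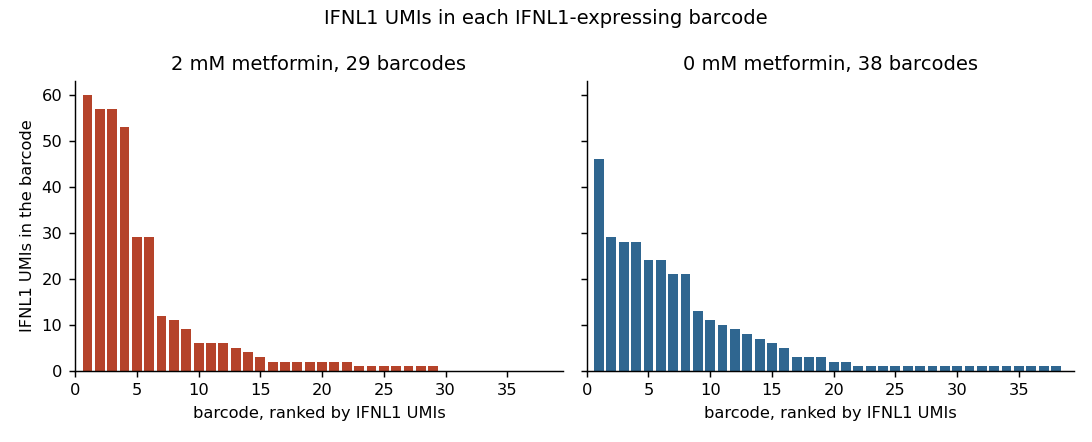
IFNL1 UMIs (vertical axis, linear) in each IFNL1+ barcode, ranked from highest to lowest, at 2 mM (left, 29 barcodes) and 0 mM metformin (right, 38 barcodes). The 5 highest barcodes carry 69.6% of the UMIs at 2 mM and 48.4% at 0 mM. Single barcodes hold up to 60 and 46, and 7 and 17 barcodes hold a single one. Barcodes 1 base apart are drawn singly.

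Barcodes with a single IFNL1 UMI lie just inside the rule, and part of them looked like barcodes without the gene. All barcodes were grouped by UMIs of IFIT1, IFIT2, IFIT3, ISG15 and OASL per 1000 UMIs, a grouping chosen after the data were seen. Where these 5 genes gave at least 5 UMIs per 1000, 27 of 140 barcodes (19.3%, 13.1 to 26.8%) at 2 mM and 30 of 254 (11.8%, 8.11 to 16.4%) at 0 mM held IFNL1. Below 1 per 1000, IFNL1 was found in 2 of 545 (0.367%, 0.0445 to 1.32%) and 5 of 456 (1.10%, 0.357 to 2.54%), always as a single UMI. After thinning to 1000 UMIs, with barcodes in the same groups, it was found in 21 of 140 and 20 of 254 barcodes of the high group at 2 mM and 0 mM. In the low group it was then found in 2 of 545 and in 0 of 456 (0 to 0.806%). Median depths in this low group were 3120 UMIs at 2 mM and 4062 at 0 mM, against 3458 and 3377 in the high group, so the low group was shallower at 2 mM and deeper at 0 mM. Between these groups, at 1 to 5 per 1000, IFNL1 was found in 0 of 115 barcodes (0 to 3.16%) at 2 mM. At 0 mM it was found there in 3 of 234 (1.28%, 0.265 to 3.70%), each with a single UMI. Why barcodes of the low group held an IFNL1 UMI was not tested, and they were kept as members because the rule includes them.

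The median level of the IFIT genes was higher in barcodes with more IFNL1 UMIs, in both libraries. IFIT1, whose protein binds foreign RNA ends, IFIT2 and IFIT3 are among the first genes switched on by IRF3. Their summed level per barcode had a median of 16020 CPM in barcodes with 5 or more IFNL1 UMIs at 2 mM (range 1139 to 37693). It was 15112 CPM with 2 to 4 UMIs (1575 to 43952), 1634 CPM with 1 UMI (0 to 11960) and 118 CPM with none (0 to 33491). At 0 mM the medians were 11582 CPM with 5 or more (331 to 18406), 9840 CPM with 2 to 4 (820 to 19946), 3314 CPM with 1 (0 to 38101) and 441 CPM with none (0 to 44944). The ranges overlapped in every class: barcodes without IFNL1 reached IFIT levels as high as any IFNL1+ barcode at 0 mM. Above the upper quartile of other barcodes lay 27 of 29 IFNL1+ barcodes at 2 mM and 27 of 38 at 0 mM; among those with 5 or more IFNL1 UMIs it was 13 of 13 and 14 of 16, and among those with 1 it was 5 of 7 and 9 of 17.

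**Figure D2:**
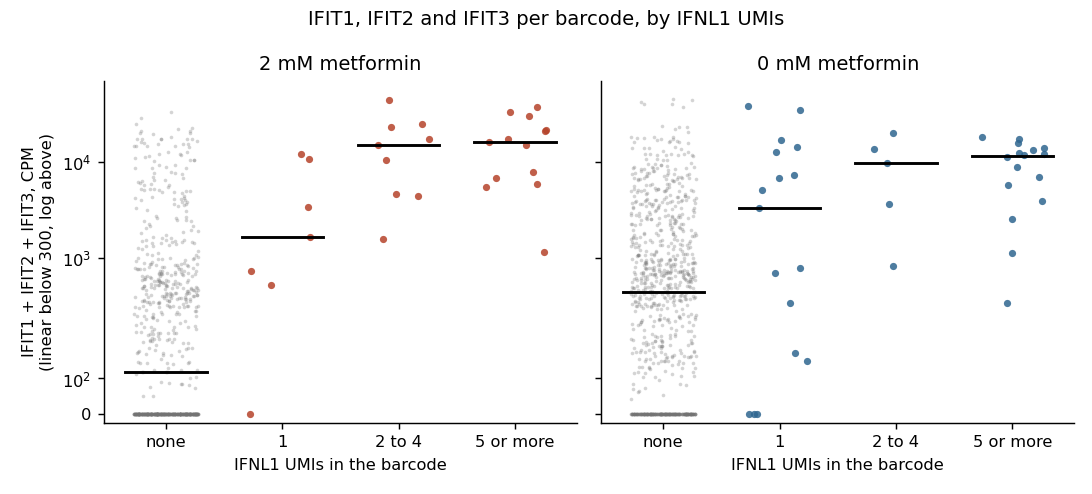
Summed IFIT1, IFIT2 and IFIT3 level in CPM (vertical axis, linear below 300 and logarithmic above) of each barcode, by its IFNL1 UMIs, at 2 mM (left) and 0 mM metformin (right). Each point is a barcode and each black line a median, which stands at 118, 1634, 15112 and 16020 CPM from none to 5 or more at 2 mM and at 441, 3314, 9840 and 11582 CPM at 0 mM.

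The other genes proposed as markers of these cells were also high in them, though no gene was found in all. OASL, an antiviral relative of the oligoadenylate synthetases, had a UMI in 24 of 29 IFNL1+ barcodes at 2 mM and 30 of 38 at 0 mM. CXCL10, which draws T cells, was found in 19 and 25, CCL5, which draws T cells and monocytes, in 15 and 16, and RSAD2 (viperin) in 10 and 7. At the equal depth of 1000 UMIs, CXCL10 was seen in 12 of 29 IFNL1+ barcodes against 5.1% of other barcodes at 2 mM, and in 19 of 38 against 8.6% at 0 mM. The same shares for CCL5 were 34.5% against 5.8% at 2 mM and 23.7% against 5.4% at 0 mM, and for OASL 72.4% against 10.6% and 65.8% against 20.5%. CCL5 and a CXCR3 ligand (CXCL10 or CXCL11) were both present in 13 IFNL1+ barcodes at 2 mM and 15 at 0 mM, CCL5 alone in 2 and 1, a CXCR3 ligand alone in 10 and 13, and neither in 4 and 9. In single IFNL1+ barcodes CXCL10 ran from 0 through a median of 734 to 4725 CPM at 2 mM and from 0 through 602 to 8731 CPM at 0 mM, against a median of 0 and a highest level of 4386 and 3376 CPM in other barcodes. The 2 sets of barcodes thus overlapped for this gene as well. In all, 36.9% of the CCL5 UMIs and 42.1% of the CXCL10 UMIs at 2 mM, and 11.5% and 34.6% at 0 mM, lay in IFNL1+ barcodes, which held 4.31% and 4.25% of all UMIs. Barcodes 1 base apart are counted singly in these marker counts.

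Markers of other cell types were at or near 0. Of 7 plasmacytoid dendritic cell genes, 3 were analysed (IL3RA, IGJ and TCF4), of 9 leukocyte genes 4 (PTPRC, CD14, LYZ and CSF1R) and of 4 fibroblast genes all. None had a UMI in IFNL1+ barcodes of either library, except TCF4 with 1 UMI at 0 mM. In other barcodes the summed levels of these lists at 2 mM and 0 mM were 2.35 and 1.20 CPM, 19.1 and 8.64 CPM, and 7.04 and 2.88 CPM. With 134277 UMIs at 2 mM and 184922 at 0 mM in all IFNL1+ barcodes, 0 UMIs allows a level of up to 22.3 and 16.2 CPM. VIM, a mesenchymal marker of MDA-MB-231, stood at 1914 CPM in IFNL1+ barcodes and 1582 CPM in other barcodes at 2 mM, and 2915 CPM against 3293 CPM at 0 mM. Of 8 marker genes of the line, 7 were compared in each library by the rule given below. At 2 mM, 5 had a higher level in IFNL1+ barcodes and 2 a lower one, with CD44, a hyaluronan receptor, at a ratio of 2.58 and the keratin gene KRT8 at 0.434. At 0 mM, 1 had a higher level and 6 a lower one, between 0.815 and 1.15.

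To compare genes, UMIs were summed over IFNL1+ barcodes and over all other barcodes of the same library and scaled to CPM. Genes were compared when they reached 100 CPM in either sum and 20 UMIs over both. Because the barcodes were chosen on their own transcripts, ratios are descriptions. A gene that is low elsewhere reaches the minimum only if it is high in IFNL1+ barcodes, so counts lean toward higher. At 2 mM, 232 of 2364 genes (9.81%) were at least 2-fold higher in IFNL1+ barcodes and 114 (4.82%) at least 2-fold lower. At 0 mM it was 133 of 2219 (5.99%) higher and 55 (2.48%) lower. Between the libraries, 100 genes were higher in both libraries, 43.1% of the 232 and 75.2% of the 133, and 9 were lower in both, 7.89% of the 114 and 16.4% of the 55. With at least 2 IFNL1 UMIs asked of a member, 233 genes were higher and 208 lower at 0 mM, and the log2 ratios there were 2.94 in place of 2.26 for ISG15, 3.83 in place of 3.03 for IL6 and 2.37 in place of 1.56 for CCL5. The median log2 ratio over all genes compared was -0.05 at 2 mM and -0.07 at 0 mM.

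Interferon genes of the lambda family appeared together. IFNL3 had 65 UMIs in 7 IFNL1+ barcodes at 2 mM and 25 UMIs in 10 at 0 mM, against 3 and 1 UMIs in all other barcodes. Its ratio was 482 (158 to 2396) at 2 mM and 563 (92.2 to 23130) at 0 mM. One barcode at 2 mM held 40 of the 65 UMIs, and without it the ratio was 195. IFNL2 had 13 UMIs at 2 mM, with 1 in other barcodes, and 20 at 0 mM, with none in other barcodes, where it was at least 150-fold higher when the other barcodes are set to 3 counts. IFNL2 or IFNL3 was present in 9 IFNL1+ barcodes at 2 mM and 11 at 0 mM, of which 7 and 9 held 5 or more IFNL1 UMIs. Barcodes 1 base apart are counted singly in these numbers. The barcodes with 4 and 6 of the 20 IFNL2 UMIs at 0 mM each had such a neighbour, so these barcodes may not all be separate cells. IFNL2 and IFNL3 are near-identical, so the division of reads between them is uncertain. Of a list of 15 interferon genes, only these 3 lambda genes were present in the counts used here, so no type I or type II interferon gene was compared.

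The interferon-induced chemokines that reached the minimum were 4 at 2 mM and 3 at 0 mM, and each was at least 2-fold higher. Only CCL5 at 2 mM, and CCL5 and CXCL10 at 0 mM, also reached 100 CPM in other barcodes. The rest came into the comparison through their level in IFNL1+ barcodes, so the count is a description. CXCL10 stood at 1251 CPM in IFNL1+ barcodes and 77.4 CPM in other barcodes at 2 mM, a ratio of 16.2 (13.2 to 19.8), and 1260 CPM against 106 CPM at 0 mM, a ratio of 11.9 (10.1 to 14.0). CXCL11, of the same receptor, had ratios of 10.7 (8.29 to 13.7) at 2 mM and 8.36 (6.71 to 10.4) at 0 mM. CCL5 stood at 1452 CPM against 112 CPM in other barcodes at 2 mM, a ratio of 13.0 (10.9 to 15.6), but at 389 CPM against 132 CPM at 0 mM, a ratio of 2.94 (2.27 to 3.76). A single barcode held 85 of the 195 CCL5 UMIs at 2 mM, and the ratio without it was 7.72. CXCL9, which responds mainly to interferon gamma, had no UMI in either library.

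Of the RNA sensors, IFIH1, DDX58 and DHX58 were high. IFIH1 had 2286 CPM in IFNL1+ barcodes and 197 CPM in other barcodes at 2 mM, and 1282 CPM against 260 CPM at 0 mM, ratios of 11.6 (10.1 to 13.3) and 4.93 (4.26 to 5.68). DDX58 had ratios of 8.81 (7.66 to 10.1) at 2 mM and 3.04 (2.61 to 3.53) at 0 mM. DHX58 (LGP2), a relative of both that lacks their signalling domains, had ratios of 13.2 and 4.81 from 25 and 22 UMIs. IRF1, an interferon-induced transcription factor, had ratios of 6.86 (5.18 to 8.99) and 2.85 (2.06 to 3.86). In the list of 23 sensors and their adaptors, 4 of the 9 genes compared at 2 mM and 4 of the 8 at 0 mM were at least 2-fold higher, namely these 4 genes. Over all genes compared it was 9.81% and 5.99%. Of the genes of this list that reached 100 CPM in other barcodes, 2 of 6 in each library were so. The share of all genes with that minimum was 3.72% at 2 mM and 2.89% at 0 mM. The signalling components were captured too rarely to compare: MAVS had 4 and 2 UMIs, TBK1 9 and 6, IRF3 6 and 13, and IRF7 5 and 5 in IFNL1+ barcodes. EIF2AK2 (PKR), the RNA-activated kinase, was lower at 2 mM, at 44.7 CPM against 113 CPM in other barcodes (6 UMIs, ratio 0.396, 0.144 to 0.870).

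The early genes that IRF3 can switch on without secreted interferon were high among those compared. Of 16 such genes, 15 were compared at 2 mM and 12 at 0 mM, and each was at least 2-fold higher, with median log2 ratios of 3.30 and 2.00. Part of them, such as RSAD2, CXCL10 and ATF3 at 2 mM, lay under 100 CPM in other barcodes and reached the minimum through IFNL1+ barcodes alone. With the 100 CPM asked of the other barcodes, a filter chosen after the data were seen, 10 genes of the list were left in each library and each was still at least 2-fold higher. The share of all genes that were so was then 3.72% at 2 mM and 2.89% at 0 mM. IFIT3 reached 5973 CPM in IFNL1+ barcodes and 523 CPM in other barcodes at 2 mM, and 2942 CPM against 785 CPM at 0 mM, ratios of 11.4 (10.5 to 12.4) and 3.75 (3.42 to 4.10). RSAD2, an antiviral enzyme, had ratios of 9.82 (7.33 to 13.0) and 6.38 (4.17 to 9.52), and the exonuclease gene ISG20 10.1 (8.74 to 11.5) and 4.53 (3.85 to 5.31). The stress transcription factor ATF3 had a ratio of 10.0 from 14 UMIs at 2 mM, and at 0 mM, where it was under the minimum, 18 UMIs. CXCL10 and CCL5 belong to this list too. PMAIP1 (NOXA), a BH3-only death gene, had 1601 CPM against 488 CPM at 2 mM and 1027 CPM against 379 CPM at 0 mM. CMPK2 had no UMI in IFNL1+ barcodes. Of the 13 promoters of this list in the RefSeq table, 8 held an ISRE core.

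Genes that mark the response to secreted interferon were higher in part. In a list of 40 such ISGs, 13 of 25 compared at 2 mM and 14 of 25 at 0 mM were at least 2-fold higher, with median log2 ratios of 1.05 and 1.11. Over all genes compared it was 9.81% and 5.99%. With 100 CPM asked of the other barcodes, 3 of 13 genes of the list at 2 mM and 5 of 14 at 0 mM were so. The share of all genes was then 3.72% and 2.89%. As a summed level the list stood at 10426 CPM in IFNL1+ barcodes and 5128 CPM in other barcodes at 2 mM, a ratio of 2.03 (1.92 to 2.15), and at 8787 CPM against 5458 CPM at 0 mM, a ratio of 1.61 (1.53 to 1.70). PARP14 had ratios of 7.04 (5.71 to 8.62) at 2 mM and 2.56 (2.06 to 3.15) at 0 mM, and OAS2 7.90 (4.89 to 12.4) and 3.65 (2.35 to 5.46). The membrane genes IFITM3, which blocks virus entry, and BST2 (tetherin), which holds virus at the surface, had ratios of 1.82 and 1.01 at 2 mM and 1.40 and 1.05 at 0 mM. ISG15, a ubiquitin-like modifier that also restrains receptor signalling, stood at 9674 CPM against 1231 CPM in other barcodes at 2 mM and 9134 CPM against 1908 CPM at 0 mM. It was placed in the list of receptor and JAK-STAT genes and is not among these 40 ISGs. The receptor gene IFNLR1 had no UMI in IFNL1+ barcodes of either library, against 2.68 and 1.92 CPM in other barcodes, which is below the 22.3 and 16.2 CPM that a count of 0 allows.

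Guanylate binding proteins and other IRF1-linked genes were at least 2-fold higher in 10 of 11 compared at 2 mM and 7 of 9 at 0 mM. Over all genes compared it was 9.81% and 5.99%. At 2 mM, 0 of the 11 reached 100 CPM in other barcodes, so the count there is a description only. At 0 mM, 4 reached it, and 3 of these were at least 2-fold higher. GBP1 had ratios of 5.99 (4.32 to 8.17) and 2.74 (1.96 to 3.75). HLA class I genes differed less. Their summed level was 26483 CPM against 20408 CPM in other barcodes at 2 mM, a ratio of 1.30 (1.25 to 1.34), and 24540 CPM against 19389 CPM at 0 mM, a ratio of 1.27 (1.23 to 1.30). Of 10 genes compared, 8 at 2 mM and 10 at 0 mM had ratios above 1, beside 1100 of 2364 and 967 of 2219 over all genes. HLA-B had ratios of 1.17 and 1.15, HLA-C 1.02 and 1.10, and the light chain B2M 1.585 and 1.578. Of the 10, only the peptide transporter TAP1, at 2.61 (1.86 to 3.59) in the 2 mM library, passed 2-fold. HLA class II genes were lower without exception among the 6 compared in each library, with median log2 ratios of -0.59 at 2 mM and -0.89 at 0 mM, though 0 and 3 of them passed 2-fold. Over all genes compared, 1264 of 2364 at 2 mM and 1252 of 2219 at 0 mM were lower. At least 2-fold lower were 4.82% and 2.48% of all genes. CD74, the class II chaperone, had 2011 CPM against 2774 CPM in other barcodes at 2 mM and 1406 CPM against 1897 CPM at 0 mM, ratios of 0.725 (0.640 to 0.819) and 0.741 (0.653 to 0.839).

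NF-kB targets were higher in part. At least 2-fold higher were 13 of 21 compared at 2 mM and 12 of 20 at 0 mM, with median log2 ratios of 1.504 and 1.247. Over all genes compared it was 9.81% and 5.99%. With 100 CPM asked of the other barcodes, 7 of 15 genes of the list at 2 mM and 5 of 13 at 0 mM were so. The share of all genes was then 3.72% and 2.89%. IL6 stood at 618 CPM against 110 CPM in other barcodes at 2 mM and 606 CPM against 74.2 CPM at 0 mM, ratios of 5.64 (4.38 to 7.20) and 8.17 (6.52 to 10.2). TNFAIP3 (A20), which dampens NF-kB, had ratios of 8.34 (4.99 to 13.5) and 4.85 (2.83 to 7.92), and the adhesion gene ICAM1 5.50 (4.43 to 6.77) and 2.37 (1.85 to 2.99). TNF, a main inducer of NF-kB, had 4 UMIs against 1 in all other barcodes at 2 mM and 10 against 1 at 0 mM. The neutrophil chemokine CXCL1 was lower at 2 mM, at 209 CPM against 599 CPM (ratio 0.348, 0.231 to 0.505), while at 0 mM it had 346 CPM against 190 CPM, with 50 of its 64 UMIs in 1 barcode.

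Genes of cell death and of the stress response were measured as further lists. Of the death genes, 4 of 6 compared at 2 mM and 4 of 7 at 0 mM were at least 2-fold higher, with median log2 ratios of 1.93 and 1.44. The death ligand gene TNFSF10 (TRAIL) stood at 544 CPM against 123 CPM in other barcodes at 2 mM and 346 CPM against 67.9 CPM at 0 mM, ratios of 4.43 (3.4 to 5.71) and 5.10 (3.82 to 6.71). The death receptor gene FAS had ratios of 4.67 (2.59 to 7.94) and 5.59 (3.70 to 8.24), and PMAIP1 and BBC3 were the other 2. Of the stress genes, 2 of 5 at 2 mM and 1 of 4 at 0 mM passed 2-fold, among them PPP1R15A in both, while the stress factor ATF4 had ratios of 0.837 and 0.967. Of 10 targets of p53 only CDKN1A, a cell cycle inhibitor, could be compared, at 4.18 (3.08 to 5.57) and 2.31 (1.69 to 3.10). Of the receptor and JAK-STAT genes, 2 of 7 at 2 mM and 2 of 6 at 0 mM passed 2-fold, ISG15 among them in both. Over all genes compared, 9.81% and 5.99% were at least 2-fold higher. With 100 CPM asked of the other barcodes, 2 of 3 death genes at 2 mM and 1 of 2 at 0 mM were so. For stress genes it was 1 of 4 in each library, and for receptor and JAK-STAT genes 1 of 3 in each. The share of all genes was then 3.72% and 2.89%.

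**Figure D3:**
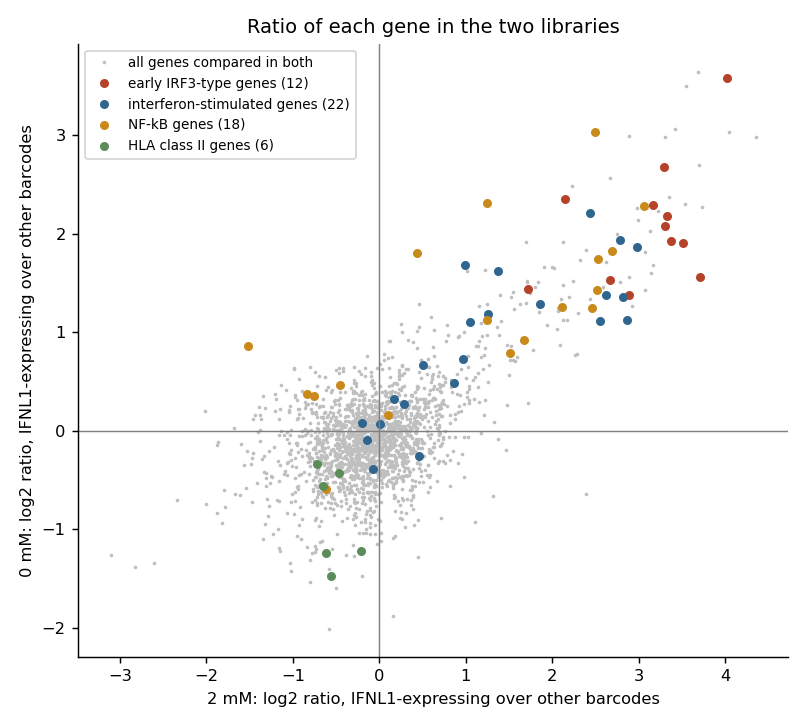
Log2 ratio of IFNL1+ over other barcodes for 2003 genes compared in both libraries (IFNL3 left out for scale), at 2 mM on the horizontal and 0 mM on the vertical axis, each point a gene. All 12 early IRF3-type genes lie above 0 in both libraries and all 6 HLA class II genes below 0 in both. ISGs and NF-kB genes are spread widely, and the NF-kB gene CXCL1 lies below the class II genes at 2 mM.

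Named by rank over both libraries, the highest genes held further functions. CH25H, which makes the antiviral sterol 25-hydroxycholesterol, had ratios of 11.7 (8.81 to 15.4) at 2 mM and 11.3 (8.87 to 14.2) at 0 mM. BBC3 (PUMA), a BH3-only death gene, had 261 CPM against 12.7 CPM in other barcodes at 2 mM and 114 CPM against 14.4 CPM at 0 mM, ratios of 20.5 (12.6 to 33.3) and 7.89 (4.56 to 13.2). MXD1, an antagonist of MYC at their shared partner MAX, had ratios of 12.9 and 6.49, HIP1R, an endocytic adaptor, 16.4 and 8.19, and the Wnt receptor gene FZD4 7.41 and 7.97. CCL26 (eotaxin-3) had ratios of 12.9 and 12.5, but at 2 mM 18 of its 22 UMIs came from 1 barcode and the ratio without it was 2.45. RP11-757G1.6, given by its clone name, completed the 12 with IFNL3, CXCL10, CXCL11, ISG15 and IL6. Of these 12 genes, 11 had a promoter in the RefSeq table, 4 with an ISRE core and 3 with an NF-kB core.

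The lowest genes had varied functions. NQO1, a quinone reductase under NRF2, had 194 CPM against 494 CPM in other barcodes at 2 mM and 492 CPM against 1052 CPM at 0 mM, ratios of 0.392 (0.255 to 0.577) and 0.468 (0.376 to 0.576). TXNRD1, thioredoxin reductase, had ratios of 0.598 and 0.615, and the ferritin heavy chain FTH1, at 6941 CPM against 12137 CPM and 8544 CPM against 10930 CPM, 0.572 (0.535 to 0.610) and 0.782 (0.743 to 0.822). THBS1, a matrix glycoprotein, had ratios of 0.164 and 0.395 from 8 and 12 UMIs, and ANKRD1, a YAP target, 0.116 and 0.418 from 4 and 13 UMIs. The nucleolar NOLC1, the mitochondrial chaperonin HSPE1, RHOBTB3, the kinase gene NEK6, the actin gene ACTG1 and CD74 were also among the lowest, between 0.142 and 0.741 in both libraries. Of the 12 lowest genes 9 had a promoter in the table, of which 3 held an ISRE core and 0 an NF-kB core. Beside them, 4 and 3 of the 11 promoters of the highest genes held these cores. FTH1 and ACTG1 have processed copies elsewhere, so their counts are uncertain.

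The closest barcodes without IFNL1 were defined by the ISG list: no IFNL1 UMI, and an ISG share of UMIs at or above the lower quartile of IFNL1+ barcodes of the same library. That limit was 6931 CPM at 2 mM and 4991 CPM at 0 mM, where the summed ISG level over all other barcodes was 5128 CPM and 5458 CPM. It took in 138 barcodes at 2 mM and 409 at 0 mM, called ISG-high here. At 0 mM the limit lay below the level over all other barcodes, so the name holds only by the rule. The 40 genes of that list chose them and are not results here, and the sums of IFNL1+ barcodes are the same as above. Of 2299 genes compared at 2 mM, 167 (7.26%) were at least 2-fold higher in IFNL1+ barcodes and 88 (3.83%) lower. Of 2175 at 0 mM, 101 (4.64%) were higher and 50 (2.3%) lower. Higher in both were 50 genes, 29.9% of the 167 and 49.5% of the 101, and lower in both were 4.

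Early genes that reached the minimum were higher in IFNL1+ barcodes than in ISG-high barcodes as well. A gene low in ISG-high barcodes reached it only if high in IFNL1+ barcodes. The counts here thus lean toward higher and are descriptions. All 15 early IRF3-type genes compared at 2 mM and all 12 at 0 mM had ratios above 1, and 11 and 6 of them reached 2-fold. Of the NF-kB targets, 10 of 21 at 2 mM and 9 of 20 at 0 mM reached 2-fold, while 7 and 1 had ratios below 1, the lowest 0.495 at 2 mM. Over all genes compared, 1229 of 2299 at 2 mM and 1123 of 2175 at 0 mM had ratios above 1. Of these genes compared, 7.26% and 4.64% were at least 2-fold higher. CXCL10 had 1251 CPM against 355 CPM in ISG-high barcodes at 2 mM and 1260 CPM against 224 CPM at 0 mM, ratios of 3.52 (2.84 to 4.37) and 5.64 (4.77 to 6.65). IFIH1 had ratios of 2.76 (2.38 to 3.20) and 2.38 (2.06 to 2.75). PPP1R15A (GADD34), which restores translation by removing the phosphate from eIF2 alpha, had 819 CPM against 132 CPM at 2 mM and 503 CPM against 133 CPM at 0 mM, ratios of 6.21 (4.55 to 8.53) and 3.77 (2.93 to 4.81). One barcode held 46 of its 110 UMIs at 2 mM. The pentraxin PTX3, a soluble pattern receptor, had ratios of 3.73 (2.82 to 4.94) and 2.66 (2.20 to 3.20), the proteoglycan SDC4 3.44 (2.93 to 4.03) and 2.55 (2.24 to 2.90), and BBC3 13.4 (6.51 to 30.4) and 5.11 (2.85 to 8.90). Also among the 10 highest were IFNL3, CCL26, HIP1R, MXD1 and PLEKHA4, the last at 3.07 and 2.84.

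The heavy chain genes HLA-B and HLA-C of HLA class I were lower in IFNL1+ than in ISG-high barcodes, neither by 2-fold. HLA-B had 6241 CPM against 8590 CPM at 2 mM and 5619 CPM against 6638 CPM at 0 mM. Its ratios were 0.727 (0.674 to 0.782) and 0.846 (0.794 to 0.902), and those of HLA-C 0.622 (0.549 to 0.702) and 0.825 (0.743 to 0.915). B2M, the light chain that class I molecules share, had ratios of 0.978 and 1.19. The class I heavy chain genes resemble each other, and how their reads were assigned was not given, so each count is uncertain. FTH1, NQO1, CD74, HLA-DRB1, the phosphatase gene DUSP6, RB1CC1, SLC20A1 and ANKRD1 were among the 10 lowest genes, between 0.260 and 0.714 in both libraries.

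**Figure D4:**
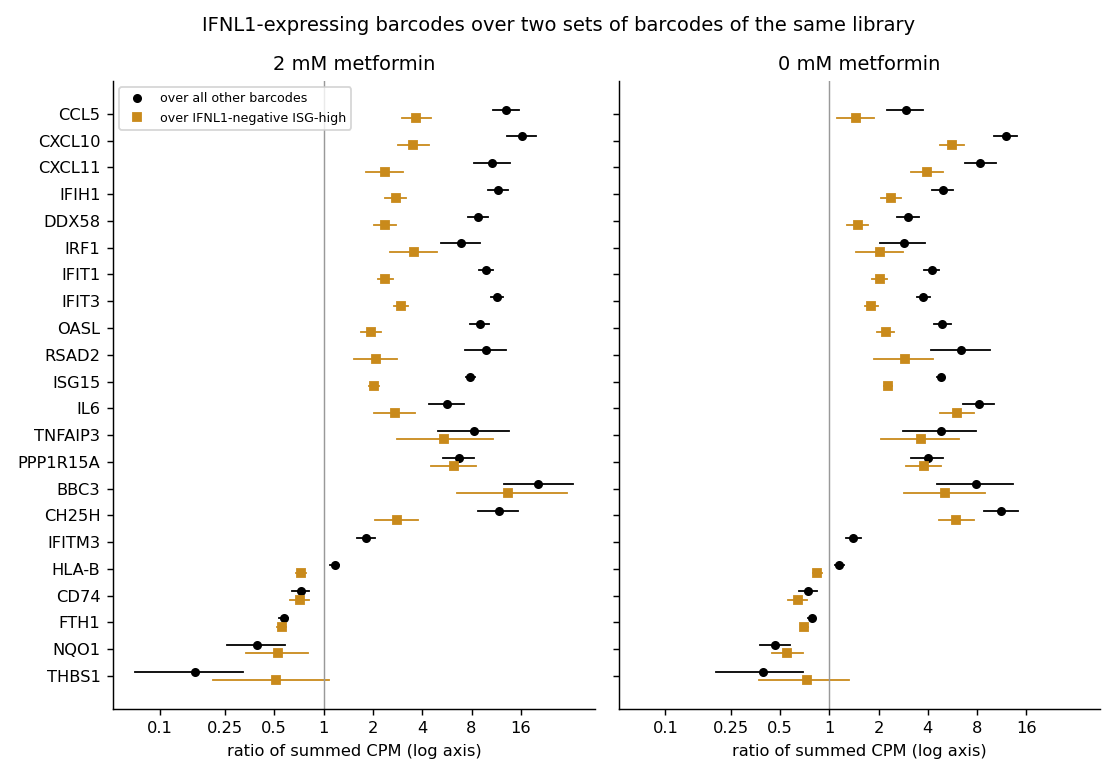
Ratio of summed CPM (log axis) of IFNL1+ barcodes over all other barcodes (circles) and over IFNL1-negative ISG-high barcodes (squares) for 22 genes, at 2 mM (left) and 0 mM metformin (right), with 95% counting intervals as lines. IFIT1 stands at 9.83 and 4.22 over other barcodes but at 2.38 and 2.03 over ISG-high barcodes, while PPP1R15A stands at 6.70 and 6.21 at 2 mM and at 3.99 and 3.77 at 0 mM. IFITM3 has no square because its list chose the ISG-high barcodes.

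Within the group, PPP1R15A, BBC3 and PTX3 had their highest level in barcodes with 5 or more IFNL1 UMIs, and IFIT1 in those with 2 to 4. These genes were picked for display after their values were seen. PPP1R15A stood at 1305 CPM with 5 or more IFNL1 UMIs, 57.7 CPM with 2 to 4, 242 CPM with 1 and 122 CPM with none at 2 mM. At 0 mM it stood at 939, 260, 180 and 126 CPM in the same order of classes. PTX3 stood at 1178, 202, 145 and 91.5 CPM at 2 mM, and at 1174, 104, 629 and 227 CPM at 0 mM, where 56 of its 148 UMIs in IFNL1+ barcodes lay in those with a single IFNL1 UMI. BBC3 stood at 393, 28.8, 145 and 12.7 CPM at 2 mM, and at 183, 104, 56.2 and 14.4 CPM at 0 mM. For IFIT1 the levels were 4182, 5770, 628 and 411 CPM at 2 mM, and 2701, 4158, 1460 and 535 CPM at 0 mM. NQO1 ran the other way, with 165 CPM at 5 or more and 494 CPM at none at 2 mM, and 313 and 1052 CPM at 0 mM. The class of 2 to 4 UMIs held 34663 UMIs in all at 2 mM and 19238 at 0 mM, so low genes there rest on few counts, such as 2 and 5 UMIs of PPP1R15A.

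Cell cycle transcripts were found at shares whose intervals overlapped those of other barcodes. Thinned to 1000 UMIs, 3 or more UMIs of the G2/M list were found in 41.4% of IFNL1+ barcodes (23.5 to 61.1%) and 47.7% of other barcodes (44.2 to 51.3%) at 2 mM. At 0 mM it was 55.3% (38.3 to 71.4%) against 57.4% (54.1 to 60.6%). S-phase transcripts at the same limit were found in 34.5% against 26.5% at 2 mM and 44.7% against 36.0% at 0 mM. As summed levels without thinning, S-phase genes stood at 2137 CPM in IFNL1+ barcodes and 2774 CPM in other barcodes at 2 mM, and at 2374 CPM against 2932 CPM at 0 mM, ratios of 0.771 (0.683 to 0.867) and 0.810 (0.734 to 0.891). The same ratios for G2/M genes were 1.21 (1.14 to 1.30) at 2 mM and 0.839 (0.792 to 0.888) at 0 mM. Shares and sums thus gave opposite orders for S phase in both libraries and for G2/M at 2 mM, and no order is read from them. In the ISG-high barcodes without IFNL1 the shares were 16.7% at 2 mM and 21.03% at 0 mM for S phase, and 42.0% and 48.4% for G2/M. Gene by gene against them, 13 of 24 G2/M genes at 2 mM and 15 of 22 at 0 mM were at least 2-fold higher in IFNL1+ barcodes. Over all genes compared it was 7.26% and 4.64%. The G2/M shares, however, were 41.4% in IFNL1+ against 42.0% in ISG-high barcodes (33.7 to 50.7%) at 2 mM. At 0 mM they were 55.3% against 48.4% (43.5 to 53.4%), and the intervals overlapped in both libraries. Shares and gene ratios thus differed at 2 mM, and no order is read here either.

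RNA quality measures are given for the same sums. Mitochondrially encoded transcripts took 3.86% of UMIs in IFNL1+ barcodes and 5.28% in other barcodes at 2 mM, and 5.75% against 5.37% at 0 mM. The nuclear RNA MALAT1 took 1.16% against 1.70% at 2 mM and 2.82% against 2.39% at 0 mM. Both measures thus differed from other barcodes in opposite directions in the 2 libraries, and their part in the results was not tested.

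Between doses, IFNL1+ barcodes at 2 mM were compared with those at 0 mM, 29 against 38 barcodes of 1 library each. Library and dose cannot be told apart. Of 2314 genes, 168 (7.26%) were at least 2-fold higher at 2 mM and 129 (5.57%) lower, with a median log2 ratio over all genes of 0.07. The early genes IFIT1, IFIT2 and IFIT3 had ratios of 1.79 (1.58 to 2.04), 1.98 (1.76 to 2.24) and 2.03 (1.82 to 2.27), while in other barcodes the same ratios were 0.77, 0.73 and 0.67. DDX58 had a ratio of 2.00 (1.66 to 2.40), from 2137 CPM at 2 mM and 1071 CPM at 0 mM. CXCL10 had a ratio of 0.993 (0.809 to 1.22), ISG15 1.06 (0.985 to 1.14), IL6 1.02 and CH25H 1.01, so the intervals of CXCL10 and ISG15 held 1. Single-UMI barcodes were 7 of 29 at 2 mM and 17 of 38 at 0 mM. With at least 2 IFNL1 UMIs asked of a member, log2 ratios between doses were -0.44 in place of 0.08 for ISG15, -0.81 in place of 0.03 for IL6, -0.58 in place of 0.02 for CH25H and -0.34 in place of -0.01 for CXCL10, so all 4 stood lower at 2 mM without the single-UMI barcodes. Within barcodes of 5 or more IFNL1 UMIs, IFIT1 stood at 4182 CPM at 2 mM and 2701 CPM at 0 mM, whereas ISG15 stood at 12507 and 15982 CPM.

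Genes with the highest ratios at 2 mM included the HLA class II genes HLA-DRA, at 1065 CPM at 2 mM and 254 CPM at 0 mM (4.19, 2.99 to 5.96), and HLA-DRB1, at 499 and 108 CPM (4.61, 2.77 to 8.03). Other barcodes shared the direction, with HLA-DRA at 1230 CPM at 2 mM and 593 CPM at 0 mM. LCN2, which binds iron-carrying siderophores, had 20 UMIs in 7 barcodes at 2 mM and 1 UMI at 0 mM. Its level in other barcodes was 191 CPM in the 2 mM library against 24.0 CPM in the 0 mM library, so their ratio was 7.97 (6.44 to 9.96). FAM46A had 58 UMIs in 14 barcodes at 2 mM against 13 in 9 at 0 mM (6.14, 3.33 to 12.2). In other barcodes the ratio of FAM46A was 1.22. CCDC6 had 22 UMIs in 4 barcodes at 2 mM and 2 UMIs at 0 mM. CCL5 had a ratio of 3.73 (2.83 to 4.96), or 2.21 without the barcode of 85 UMIs. With at least 2 IFNL1 UMIs asked of a member its log2 ratio was 1.13 in place of 1.90. S100A2 had a ratio of 4.10, or 1.28 without the 1 barcode that held 83 of its 116 UMIs.

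The lowest genes at 2 mM were partly those of single barcodes too. The growth factor gene CSF2 had 8 UMIs at 2 mM and 62 at 0 mM, of which 58 in 1 barcode, and its ratio of 0.178 became 2.64 without that barcode. At 2 mM, 7 of its 8 UMIs also lay in 1 barcode, and without the top barcode of each library the ratio was 0.363. FOS, an immediate early gene, had 7 UMIs at 2 mM and 40 at 0 mM, 30 of them in 1 barcode, and the ratio of 0.241 became 0.898. Spread over many barcodes were the lower counts of EFEMP1 (fibulin-3), with 3 UMIs in 3 barcodes against 25 in 15, RBBP6, with 3 in 3 against 25 in 13, and RNF187, with 2 in 2 against 22 in 14. NGFRAP1 had 11 UMIs against 52, and ODF3B 2 against 19. MALAT1 stood at 11580 CPM at 2 mM and 28152 CPM at 0 mM (0.411, 0.388 to 0.435), against 16977 and 23899 CPM in other barcodes.

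**Figure D5:**
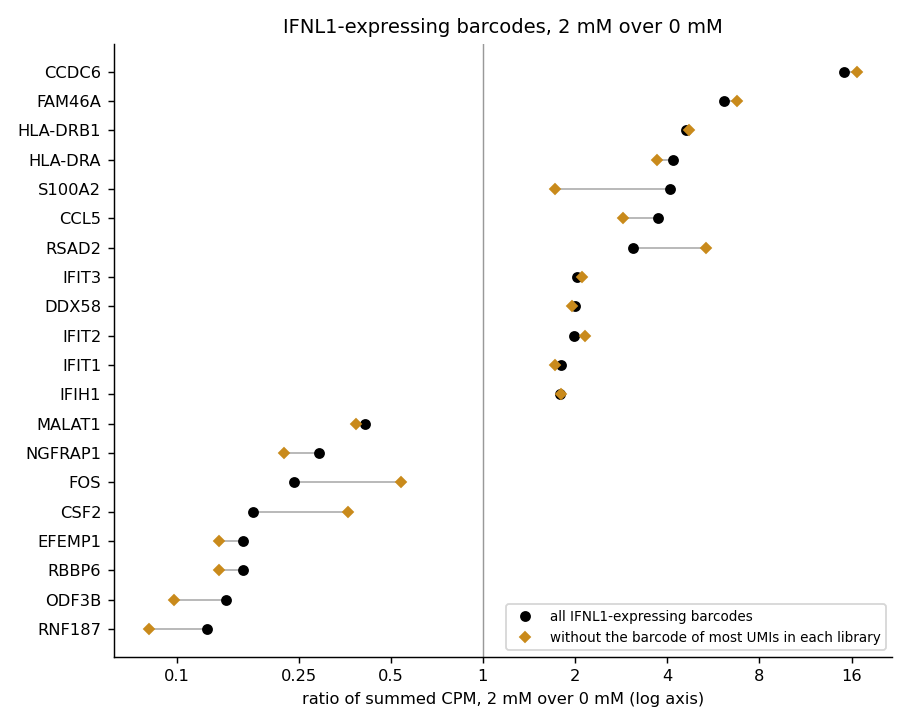
Ratio of summed CPM of IFNL1+ barcodes, 2 mM over 0 mM (log axis), over all IFNL1+ barcodes (circles) and without the barcode that held the most UMIs of the gene in each library (diamonds). IFIT1, IFIT2, IFIT3, DDX58 and IFIH1 stay between 1.72 and 2.15, while S100A2 stands at 4.10 with all and 1.72 without these barcodes, FOS at 0.241 and 0.539, and CSF2 at 0.178 and 0.363.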

How the data were processed

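Single-cell RNA libraries of 2 samples were used, 1 per dose of metformin. The authors deposited whole-number UMI counts per gene and barcode, 1000 barcodes in each library, with no normalization. Reads were processed with bcl2fastq and STAR 2.5.0a against hg19, per the submitters' processing notes. For the choice of barcodes, the collapse of UMIs, the annotation and the use of strand, the method was not given in the sources used here. Depth per library was 3268524 UMIs at 2 mM and 4403045 at 0 mM, with medians of 2475 and 3386 per barcode.

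From these counts, barcodes of at least 1000 UMIs were kept, UMIs were summed over IFNL1+ barcodes, over all other barcodes and over IFNL1-negative ISG-high barcodes of a library, and scaled to CPM. Ratios have exact conditional binomial 95% intervals and shares exact Clopper-Pearson intervals, both for counting error only, since amplified reads and the barcodes of 1 culture are not independent. With 1 library per dose, and members chosen on a transcript, no test was made. A sum at 0 was set to 3 counts over the group, which gives a bound. No doublet caller was run; the deepest 5% of barcodes were left out as an alternative. The members, the gene lists and the tests were chosen with earlier results of these data known.

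Genes named are the 12 highest and 12 lowest over other barcodes in both libraries, ranked by the interval bound nearest 1, the 10 highest and 10 lowest over ISG-high barcodes, the 8 highest and 8 lowest between doses, and examples from the lists. Mitochondrial and ribosomal protein genes were left out of these rankings. A few genes that the rule names are not reported here. The lists are of interferons, chemokines, sensors, receptors and JAK-STAT, early IRF3-type genes, ISGs, IRF1-linked genes, HLA class I and II, NF-kB, stress, death, p53, S phase, G2/M and cell type markers. The alternatives were other limits on IFNL1 UMIs, depth, mitochondrial share and CPM, merging of barcodes 1 base apart, equal or depth-matched weights, thinning, and TMM factors from edgeR 4.0.16. Promoters are from RefSeq GRCh38.p14; no hg19 coordinates are given. The calculation was tested on simulated data. Python 3.11.15, numpy 2.4.6, scipy 1.17.1, pandas 2.3.3, matplotlib 3.10.9 and R 4.3.3 were used.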

Additional observations from a re-analysis of the deposited data

How the results depend on the processing

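Counts of genes or barcodes were held against 1.5 times the reported count, and shares of IFNL1+ barcodes and ISG ratios against the 95% interval of the reported value. Of 112 recomputed values 84 lay within these limits, and the 28 given here did not. Asking for at least 2 IFNL1 UMIs gave a share of 2.22% at 0 mM, ISG ratios of 2.15 at 2 mM and 2.09 at 0 mM, and 233 genes higher and 208 lower at 0 mM. Asking for at least 5, chosen after the data were seen, gave shares of 1.63% at 2 mM and 1.69% at 0 mM, and ISG ratios of 2.22 and 2.05. It gave 258 genes lower at 2 mM, 259 higher and 241 lower at 0 mM, and, between doses, 103 higher and 84 lower. A minimum of 50 CPM gave 442 genes higher and 396 lower at 2 mM, and 215 and 223 at 0 mM. No CPM minimum gave 1355 and 1250 at 2 mM, and 1129 and 1078 at 0 mM. Equal weights gave 95 genes lower at 0 mM. Leaving out the deepest 5% of barcodes gave 83 genes lower and an ISG ratio of 1.73 at 0 mM. Thinning to 1000 UMIs gave a share of 2.22% at 0 mM. An ISG threshold at the median of IFNL1+ barcodes left 65 ISG-high barcodes at 2 mM and 112 at 0 mM. The cause of these moves was not tested.

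Of 1290 recomputed log2 ratios of named genes, 1152 lay within the interval of the reported value. The sign changed in 54, of which 48 had a reported value under 2-fold and 6 one of at least 2-fold. FOS between doses (-2.05) became 1.56 with at least 2 IFNL1 UMIs and 1.54 with at least 5. FOS at 0 mM (1.16) became -2.31, -1.98 and, without the deepest barcodes, -0.72. ANKRD1 at 0 mM (-1.26) became 0.049 with at least 5. One barcode held 30 of the 40 FOS UMIs. Leaving out the barcode with the most UMIs of a gene was added after the data were seen. No paired analysis was possible because each dose had 1 library. With 29 and 38 barcodes, genes under about 20 UMIs have wide intervals.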
